A study of Mus musculus with 8 samples.

Results

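The genes described are the lysyl oxidases Lox, Loxl1, Loxl2 and Loxl3, the lysyl hydroxylases Plod1, Plod2 and Plod3, the prolyl hydroxylase subunit P4ha1, the collagen chaperone Serpinh1 and the procollagen C-proteinase enhancer Pcolce, 10 genes in all. They were matched by gene symbol to the array's platform annotation, which named 15 probes for 9 of them among 45281 probes on the array, and Loxl2 had no probe under its symbol in that annotation. Of these probes 12, for 8 genes, passed the detection filter, among 18601 probes and 10734 named genes that passed on the whole array. Loxl3 was measured by 1 probe that was not above background on any array, so that no level or change is given for it.

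RNA came from kidneys with a ureter tied 7 days earlier (unilateral ureteral obstruction, UUO), in adult male mice of the strain given as C57/bk. This operation blocks the outflow of urine from a kidney and leads to inflammation, loss of tubules and scarring. The 4 mice of the first group were treated with anti-miR-214, an oligonucleotide that blocks miR-214 (a small RNA that silences messages), and the 4 mice of the other group with a control antimiR. All 8 kidneys were obstructed, kidneys without obstruction were not analysed here, and the sources used here do not give the dose or chemistry of the oligonucleotides. Each animal had 1 Illumina bead array, and a value below is a log2 intensity after background correction and quantile normalization unless another scale is named.

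Collagen is modified, folded, cut and crosslinked in a fixed order of steps. In the endoplasmic reticulum prolyl 4-hydroxylases, whose catalytic subunit P4ha1 encodes, hydroxylate proline residues that hold the triple helix together, lysyl hydroxylases (Plod genes) hydroxylate lysine residues, and Hsp47 (Serpinh1) binds and guards the folded helix. Outside the cell procollagen C-proteinase, aided by the enhancer protein that Pcolce encodes, removes the C-propeptide so that fibrils can form, and lysyl oxidases then oxidise lysine and hydroxylysine side chains of collagen and elastin, which join into crosslinks that stiffen the matrix. In scarring kidneys several of these genes are known as products of fibroblasts and myofibroblasts, while whole-tissue arrays do not show which cells made a message.

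The oligonucleotide is directed at miR-214. Its mature 3p strand, from RefSeq on build GRCm38.p6 at chr1:162223438-162223459 on the plus strand, is shown to identify the agent of the comparison, with the seed (bases 2 to 8, which pair with target messages) in capitals.
mmu-miR-214-3p: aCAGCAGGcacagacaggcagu

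The arrays of the groups differed as a whole. On anti-miR-214 arrays 37.2% to 39.2% of probes were detected, against 41.8% to 43.1% on control antimiR arrays (two-sided exact permutation p = 0.0286, which no result of 4 against 4 arrays can go below). A first principal component with 55.8% of the variance held the anti-miR-214 arrays at 14.5 and 15.4 (replicates 1 and 2) and at 46.2 and 49.1 (replicates 3 and 4), and all control antimiR arrays between -33.8 and -27.1. Kidney markers were present in both groups: all 9 measured genes of the tubule and glomerulus list passed the detection filter, among them uromodulin (Umod, a thick limb product, named after its values were seen) at 13.90 ± 0.27 in anti-miR-214 and 13.97 ± 0.11 in control antimiR kidneys (SD, n = 4 each). Arrays have no read depth, and their number limits the precision.

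Counted by the brightest tested probe, Lox was the only gene of the 8 that passed the threshold, an adjusted p under 0.05 over all 18601 probes, and it was lower after anti-miR-214. That is 12.5% of the 8 genes, against 9.93% of all named genes that were lower by their brightest probe, so the share was near that of the array. None of the 8 was higher, where 12.3% of all named genes were. Their median log2 change was -0.09, against 0.08 over all named genes, with 4 of the 8 below 0.

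**Figure D1:**
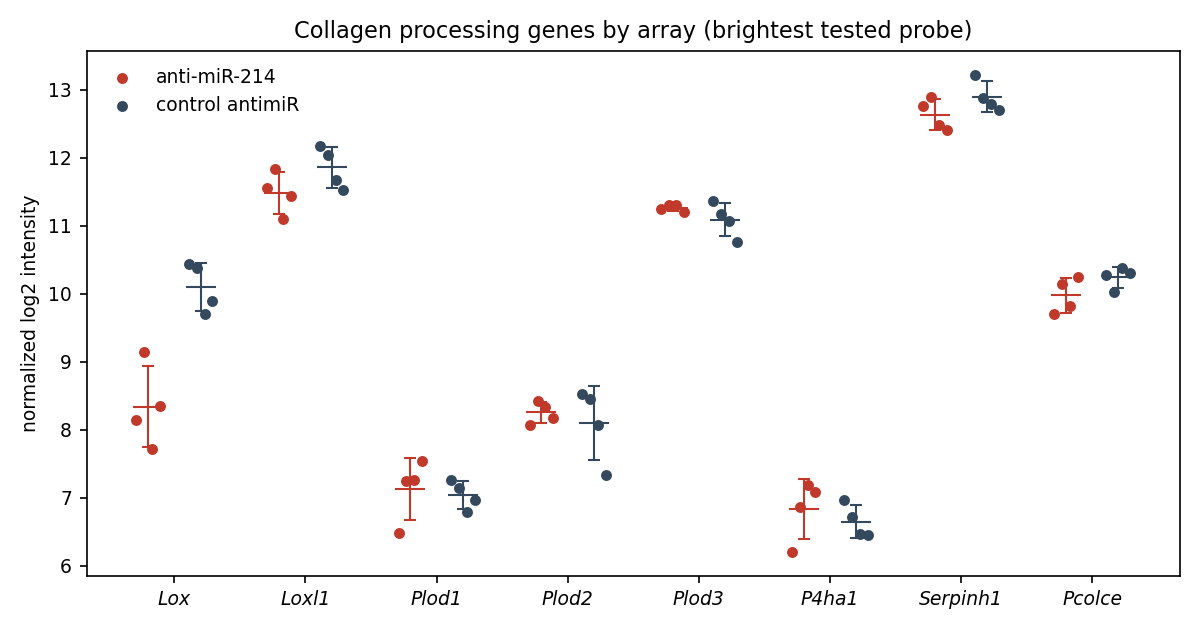
Normalized log2 intensity (vertical axis) of the brightest tested probe of each of 8 genes on the 4 anti-miR-214 arrays and the 4 control antimiR arrays. Points are arrays, horizontal marks are means and bars are SD; the anti-miR-214 points of Lox lie at 9.14 or below and its control antimiR points at 9.71 or above, while the groups of each of the other 7 genes overlap.

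Lox encodes lysyl oxidase, the founding member of the crosslinking family. Its log2 intensity was 8.15, 9.14, 7.71 and 8.35 in anti-miR-214 replicates 1 to 4, against 10.43, 10.37, 9.71 and 9.90 in control antimiR replicates 1 to 4. The groups did not overlap, with all anti-miR-214 arrays below the lowest control antimiR array, as was the case for 10.7% of all named genes. Without background correction or normalization, the deposited intensity was likewise lower on all 4 anti-miR-214 arrays, at 298 to 637 units, than on the control antimiR arrays, at 1015 to 1633 units.

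The mean was 8.34 ± 0.60 in anti-miR-214 kidneys and 10.10 ± 0.36 in control antimiR kidneys (SD, n = 4 each), a log2 change of -1.77 (SE 0.28, 95% interval -2.37 to -1.16, limma adjusted p = 0.00212). Lox was thus 3.40-fold lower, a difference larger than the spread between animals. On slide 1, which carried replicates 1 to 3 of each group, the mean difference was -1.84, and on slide 2, with 1 array of each group and hence no test, it was -1.55. Over 22 other ways of processing the data or leaving arrays out, the log2 change of Lox lay between -2.03 and -1.43, and the limma adjusted p ranged from 0.000829 to 0.0218. In whole tissue a fall in the number of cells that make a message and a fall in the message per cell cannot be told apart.

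Markers of several cell types moved in the same direction as Lox. They were counted by the brightest tested probe, by which 9.93% of all named genes were lower. Of 9 tested fibroblast and pericyte markers 6 were lower and 0 higher, with a median log2 change of -0.74 and a summed level of 13.53 to 14.29 (log2 of the summed intensities) on anti-miR-214 arrays against 14.13 to 14.69 on control antimiR arrays. Of 7 macrophage markers 3 were lower, with a summed level of 11.43 to 12.58 on anti-miR-214 arrays and 13.22 to 13.42 on control antimiR arrays. Lyz2 weighed most in that sum, with a log2 change of -2.32 on its brightest probe. Its other probes lay at -0.57 (limma adjusted p = 0.0847) and -0.43 (limma adjusted p = 0.0373). Adgre1 and Csf1r did not pass on the brightest probe, but a further probe was lower, at -0.82 and -1.55 (limma adjusted p = 0.00789 and 0.00346). Endothelial markers were lower in 3 of 6 cases, summed at 11.83 to 12.95 on anti-miR-214 arrays and at 12.88 to 13.34 on control antimiR arrays. Pecam1 was at -1.17 on its brightest probe and -0.21 on another (limma adjusted p = 0.493). A further Pecam1 probe, which no anti-miR-214 array detected, was at least 1.04-fold lower. Cdh5 was at -0.97 on its brightest probe and -0.27 on the other (limma adjusted p = 0.46). The tubule and glomerulus list had 0 of 9 lower and 1 higher, with a summed level of 15.71 to 16.20 on anti-miR-214 arrays and 15.75 to 16.07 on control antimiR arrays. Every tested gene of these 4 lists was detected on at least 1 array of each group, and Gli1 and Kdr did not pass the detection filter. Of the adipose markers 2 were tested and neither passed, and Adipoq and Plin1, which mark fat cells, did not pass the detection filter. The part of these cell types, and of the lower share of detected probes, in the change of Lox was not tested.

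Loxl1, a family member known for its role in elastic fibre upkeep, did not pass. Its brightest probe read 11.55, 11.84, 11.10 and 11.44 in anti-miR-214 replicates 1 to 4 and 12.18, 12.05, 11.68 and 11.53 in control antimiR replicates 1 to 4. The anti-miR-214 arrays of replicates 1 and 2 lay within the range of the control antimiR arrays and the other 2 below it. The log2 change was -0.38 (SE 0.19, 95% interval -0.79 to 0.04, limma adjusted p = 0.158). It was -0.47 on slide 1 and -0.09 on slide 2. A second Loxl1 probe was not above background on any of the 8 arrays.

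Whether Lox and Loxl1 responded unequally was tested on the difference between the genes on each array. Lox minus Loxl1 was -3.14 ± 0.33 on anti-miR-214 arrays and -1.76 ± 0.15 on control antimiR arrays (SD, n = 4 each), a difference in change of -1.39 on the log2 scale (exact permutation test, two-sided p = 0.0286, 0.08 after Benjamini-Hochberg adjustment over 28 pairs of genes). The same raw and adjusted p held for Lox against each of the other 6 genes, with differences of -1.95 to -1.50. None of the 28 pairs passed after adjustment, 10 had a raw p of 0.0286, and that is the smallest value this design can give. With that smallest value the pairs that hold Lox could not pass by themselves, however large their differences. The adjusted outcome therefore decides nothing about Lox. Of the 3 such pairs without Lox, the change of Loxl1 minus that of Plod2 was -0.54 and minus that of Plod3 -0.55, and the change of Plod3 minus that of Serpinh1 was 0.43.

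No tested probe of the lysyl hydroxylases passed the threshold with all 8 arrays in the fit. Plod1 encodes the enzyme that hydroxylates lysines of the collagen helix. It read 6.48, 7.24, 7.25 and 7.54 in anti-miR-214 replicates 1 to 4, against 7.26, 7.14, 6.79 and 6.96 in control antimiR replicates 1 to 4, with a log2 change of 0.09 (SE 0.21, 95% interval -0.37 to 0.55, limma adjusted p = 0.772). The groups overlapped, and both the lowest and the highest of the 8 arrays were of the anti-miR-214 group. Its sign depended on scaling: when each array was instead shifted to the same median (common-median scaling) the change was -0.26.

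Plod2 hydroxylates lysines of the collagen telopeptides, which leads to the more stable crosslinks of scar tissue. Its brightest probe read 8.07, 8.42, 8.34 and 8.17 in anti-miR-214 replicates 1 to 4 and 8.53, 8.45, 8.07 and 7.33 in control antimiR replicates 1 to 4. The SD was 0.16 among anti-miR-214 arrays and 0.55 among control antimiR arrays, where replicate 4 was lowest. The log2 change was 0.16 (SE 0.23, 95% interval -0.35 to 0.67, limma adjusted p = 0.642). Slide 1 alone gave -0.07 and slide 2 gave 0.84, and the sign was negative under common-median scaling (-0.10). A second tested Plod2 probe had a log2 change of 0.00 (SE 0.21, limma adjusted p = 0.994), which lay at -0.26 under that scaling, and a further probe was not above background on any array.

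Plod3 encodes an enzyme that also adds sugars to hydroxylysine. Its brightest probe was steady in anti-miR-214 kidneys, at 11.24, 11.30, 11.31 and 11.20 in replicates 1 to 4, against 11.36, 11.17, 11.07 and 10.77 in control antimiR replicates 1 to 4. All anti-miR-214 values lay below the highest control antimiR value and above the other 3. The log2 change was 0.17 (SE 0.14, 95% interval -0.13 to 0.47, limma adjusted p = 0.364). Its dimmer probe averaged 6.56 ± 0.19 in anti-miR-214 and 6.21 ± 0.30 in control antimiR kidneys (SD, n = 4 each), a log2 change of 0.35 (SE 0.16, limma adjusted p = 0.139). Without control antimiR replicate 3, the highest of its group on that probe, the change was 0.48 (limma adjusted p = 0.0489).

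P4ha1 was the gene whose probes differed. The brighter probe, annotated to the RefSeq transcript, read 6.20, 6.86, 7.18 and 7.08 in anti-miR-214 replicates 1 to 4 and 6.97, 6.71, 6.46 and 6.45 in control antimiR replicates 1 to 4. Its groups overlapped, and it did not pass, with a log2 change of 0.18 (SE 0.21, 95% interval -0.28 to 0.64, limma adjusted p = 0.55), and -0.16 under common-median scaling. The dimmer probe, annotated to a complementary DNA clone and not to a RefSeq transcript, read 6.14, 6.22, 5.96 and 5.21 in anti-miR-214 replicates 1 to 4, against 6.63, 6.76, 6.83 and 6.86 in control antimiR replicates 1 to 4.

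On that dimmer probe the groups did not overlap, and the probe fell by 0.89 (SE 0.20, 95% interval -1.33 to -0.45, limma adjusted p = 0.0105), where 13.8% of all tested probes were lower. Only 2 of 4 anti-miR-214 arrays detected it, against all 4 control antimiR arrays. The dimmer minus the brighter probe was -0.95 on anti-miR-214 arrays and 0.12 on control antimiR arrays, a difference of -1.07 (SE 0.33, limma adjusted p = 0.0346 over 5307 pairs of probes of the same gene). Such differences were common on this array, with 28.1% of those pairs past the same threshold. The probe pairs of Plod2, Plod3 and Serpinh1 did not pass, with limma adjusted p values of 0.433, 0.522 and 0.635.

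**Figure D2:**
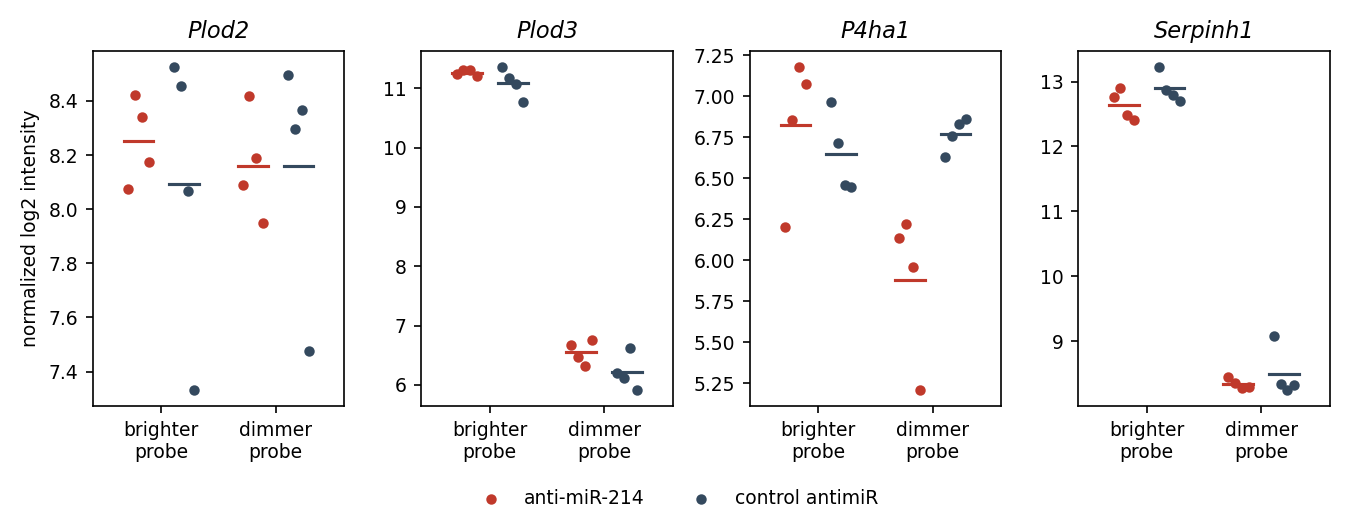
Normalized log2 intensity (vertical axis, scaled separately for each gene) of the brighter and the dimmer tested probe of Plod2, Plod3, P4ha1 and Serpinh1 on 4 anti-miR-214 and 4 control antimiR arrays, with points for arrays and lines for means. The P4ha1 groups separate on the dimmer probe (5.21 to 6.22 after anti-miR-214, 6.63 to 6.86 after control antimiR) and overlap on the brighter probe.

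Serpinh1, which encodes the chaperone Hsp47, read 12.76, 12.90, 12.48 and 12.40 in anti-miR-214 replicates 1 to 4 and 13.22, 12.87, 12.79 and 12.70 in control antimiR replicates 1 to 4. The groups overlapped through anti-miR-214 replicates 1 and 2. The log2 change was -0.26 (SE 0.16, 95% interval -0.60 to 0.08, limma adjusted p = 0.231), and 0.03 when arrays were scaled to a common median of the tested probes. The dimmer probe lay at -0.16 (SE 0.18, limma adjusted p = 0.536), with control antimiR replicate 1 at 9.08, apart from the other 3 control antimiR arrays at 8.25 to 8.34.

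Pcolce, whose product speeds the removal of the C-propeptide, read 9.70, 10.14, 9.82 and 10.25 in anti-miR-214 replicates 1 to 4, against 10.27, 10.02, 10.38 and 10.30 in control antimiR replicates 1 to 4. Anti-miR-214 replicates 1 and 3 lay below all control antimiR arrays, and the other 2 did not. It did not pass, at a log2 change of -0.27 (SE 0.15, 95% interval -0.59 to 0.06, limma adjusted p = 0.201). It was -0.34 on slide 1 and -0.06 on slide 2.

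The intervals of the 7 genes that did not pass, taken from the brightest probe of each, bound what those probes can show. The lower limits ran from -0.79 for Loxl1 to -0.13 for Plod3, and the upper limits from 0.04 for Loxl1 to 0.67 for Plod2. A fall as large as that of Lox (-1.77) lay outside each of these intervals, while smaller changes were within them. The dimmer P4ha1 probe, which passed, had an interval of -1.33 to -0.45. It did not overlap that of the brighter P4ha1 probe (-0.28 to 0.64), so P4ha1 is bounded for each probe only.

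Most fibrillar collagen genes, whose products these enzymes act on, were lower. Of 7 tested fibrillar collagen genes 5 fell and 0 rose, with a median log2 change of -0.88, against 9.93% of all named genes lower. Col1a1 and Col1a2 encode the chains of type I collagen, the main fibril of scars, and fell by 1.27 (SE 0.25, limma adjusted p = 0.0065) and by 0.67 (SE 0.21, limma adjusted p = 0.0376). Col3a1, the chain of type III collagen, fell by 1.16 (SE 0.25, limma adjusted p = 0.0084), and Col5a1, a chain of type V collagen, fell by 1.19 (SE 0.28, limma adjusted p = 0.0128). Col5a2, another type V chain, was at least 1.31-fold lower, since no anti-miR-214 array read it well above background (adjusted p = 0.00466 by limma), and with it at that bound the median was -0.67. Col24a1 at 0.24 (limma adjusted p = 0.31) and Col27a1 at 0.30 (0.233), fibrillar collagens of minor abundance, did not pass, and the other 4 genes of the list, Col2a1, Col5a3, Col11a1 and Col11a2, did not pass the detection filter. Col3a1 and Col5a1 did not pass on slide 1 alone (limma adjusted p = 0.0541 and 0.0644). With anti-miR-214 replicates 3 and 4 both left out, which lay farthest from the control antimiR arrays, Col5a2 alone of the 7 passed, while Lox still did (log2 change -1.43, limma adjusted p = 0.0218). The call of Col1a2 was lost without any 1 of 6 of the 8 arrays (0.0605 to 0.103), the exceptions being anti-miR-214 replicate 2 and control antimiR replicate 4. It was also lost with all arrays kept, under a common median of the tested probes (limma adjusted p = 0.0635), in the authors' processed values (0.0587) and with no detection filter (0.0819).

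**Figure D3:**
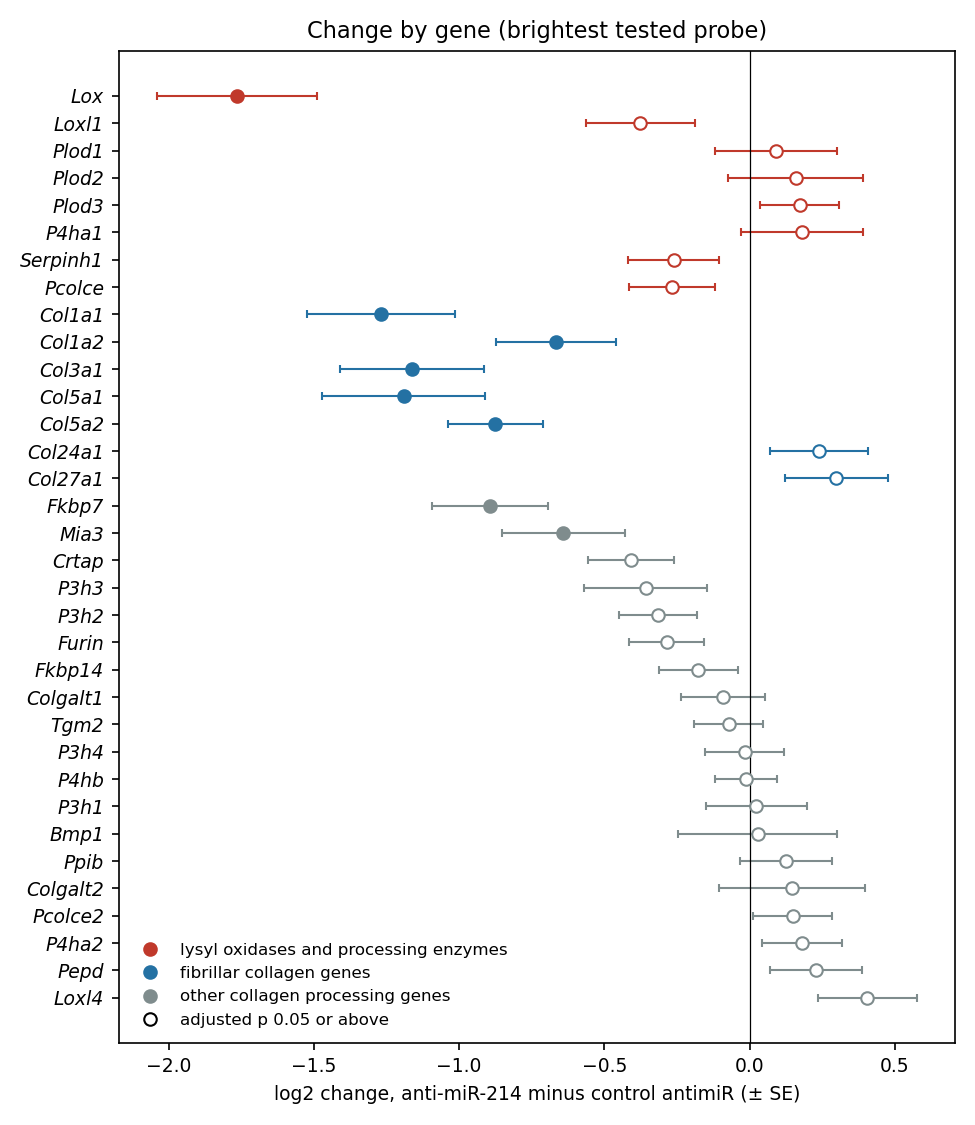
Log2 change, anti-miR-214 minus control antimiR (horizontal axis, bars are SE from limma), for the brightest tested probe of the 8 tested genes (red), 7 fibrillar collagen genes (blue) and 19 other collagen processing genes (grey). Filled points have an adjusted p under 0.05; Lox at -1.77 lies farthest to the left, and the other 7 red points are open.

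Other genes of the pathway were counted from a list of 26 collagen processing genes outside the first 10, of which 19 passed the detection filter. Of these 2 fell and 0 rose (10.5% lower, against 9.93% of all named genes), and the median log2 change was -0.02. Fkbp7, a prolyl isomerase of the endoplasmic reticulum, fell by 0.89 (SE 0.20, limma adjusted p = 0.0102). Its call was lost without both anti-miR-214 replicates 3 and 4 (limma adjusted p = 0.0636). Mia3 encodes TANGO1, which loads collagen into transport carriers, and it fell by 0.64 on its brightest probe (SE 0.21, limma adjusted p = 0.0465) and was at least 1.87-fold lower on its other probe, which no anti-miR-214 array detected. The call on the brightest probe of Mia3 was lost without anti-miR-214 replicate 3 or 4 or any 1 control antimiR array (limma adjusted p = 0.0718 to 0.105), and under 6 other settings, among them the slide as a block (0.0522), no background correction (0.0506) and slide 1 alone (0.172).

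The genes of this list with the largest p were P4hb and Bmp1. P4hb, which encodes the partner subunit of P4ha1, was at -0.01 (SE 0.11, limma adjusted p = 0.938), and Bmp1, which encodes the C-proteinase that Pcolce aids and also cuts the propeptide from lysyl oxidase, was at 0.03 (SE 0.27, limma adjusted p = 0.951). Loxl4, a further relative of Lox, was at 0.41 (SE 0.17, limma adjusted p = 0.0999) and is named after its value was seen. The counts rest on the brightest probes, and for 5 genes that did not pass on that probe another probe did. Such a probe was lower for Crtap, a cofactor of prolyl 3-hydroxylation (-0.98, limma adjusted p = 0.0123), and for the prolyl 3-hydroxylase gene P3h1 (-0.48, limma adjusted p = 0.0397). It was higher for the prolyl 3-hydroxylase gene P3h2 (0.52, limma adjusted p = 0.0311), against -0.32 on the brightest P3h2 probe. It was also higher for P4ha2, which encodes another prolyl 4-hydroxylase subunit (0.33, limma adjusted p = 0.0357), and for the collagen galactosyltransferase gene Colgalt2 (0.44, limma adjusted p = 0.0235).

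Lysyl oxidase also acts on elastin and is bound by fibronectin. Of 9 such partners and substrates 4 were tested, and 2 fell, where 9.93% of all named genes were lower. Fibronectin (Fn1) fell by 2.37 on its brightest probe (SE 0.32, limma adjusted p = 0.00112). A second Fn1 probe, detected on 2 of 4 anti-miR-214 arrays, was at -1.38 (limma adjusted p = 0.00402). The matrix protein gene Thbs1, below the detection limit on all 4 anti-miR-214 arrays, was lower by at least 2.26-fold (adjusted p = 0.000263 by limma). Elastin (Eln) was at -0.89 (SE 0.31, limma adjusted p = 0.0537) and tenascin C (Tnc) at -0.72 (SE 0.32, limma adjusted p = 0.118), and neither passed. The median of the 4 was -1.23, and -1.04 with Thbs1 at its bound.

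Lox, Plod2 and P4ha1 are also known as genes that hypoxia induces through HIF. Among 10 tested hypoxia targets from a list of 15, 1 fell and 1 rose, with a median log2 change of -0.08. Over all named genes 9.93% were lower and 12.3% higher by their brightest probe, so both counts were near the share of the array. The oxygen sensor gene Egln1 fell by 0.71 (limma adjusted p = 0.0367) and the glycolytic gene Aldoa rose by 0.47 (limma adjusted p = 0.0132), while Ndrg1 was at -0.02 and the glucose transporter gene Slc2a1 at 0.08 (limma adjusted p = 0.906 and 0.762). Egln1 was detected on 1 of 4 anti-miR-214 arrays, and its call was lost without any 1 of 6 arrays, the exceptions being anti-miR-214 replicate 2 and control antimiR replicate 1. The call of Aldoa was lost without both anti-miR-214 replicates 3 and 4 (limma adjusted p = 0.0975). The summed level of the list was 14.54 to 14.73 on anti-miR-214 arrays and 14.47 to 14.78 on control antimiR arrays.

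Promoter sequences were matched in RefSeq (build GRCm38.p6) for 5 of the 10 genes. Shown are the 250 bases before the annotated start of Serpinh1 and Plod3, a chaperone and a lysyl hydroxylase picked after the letter matches were seen, as examples of windows with a match, written 5′ to 3′ on the strand of the gene. Capitals mark the letters ACGTG, a form of the core of the hypoxia response element, and GGGCGG, the GC box bound by Sp1, on either strand. The form GCGTG of that core was not searched for and is not marked. Serpinh1 lies at chr7:99353240-99353489 on the minus strand and Plod3 at chr5:136986769-136987018 on the plus strand.
Serpinh1: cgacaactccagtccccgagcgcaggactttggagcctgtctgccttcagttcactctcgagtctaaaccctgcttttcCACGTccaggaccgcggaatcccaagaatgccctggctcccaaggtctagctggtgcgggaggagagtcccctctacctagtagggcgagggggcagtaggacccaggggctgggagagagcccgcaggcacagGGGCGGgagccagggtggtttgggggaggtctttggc
Plod3: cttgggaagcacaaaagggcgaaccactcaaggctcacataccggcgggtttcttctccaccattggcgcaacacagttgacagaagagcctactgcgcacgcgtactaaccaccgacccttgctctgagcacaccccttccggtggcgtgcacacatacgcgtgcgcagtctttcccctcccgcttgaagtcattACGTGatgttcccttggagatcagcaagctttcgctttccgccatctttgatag

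ACGTG was present once in each of the Serpinh1, Plod3 and P4ha1 windows and absent from those of Plod1 and Pcolce, and 16.6% of 32851 windows of the same length in the table held it on either strand. The P4ha1 and Pcolce windows partly overlap the RefSeq span of their gene. The ACGTG match of P4ha1 and the GGGCGG match of Pcolce lie in the overlapping parts. GGGCGG was present in the windows of Serpinh1, P4ha1, Plod1 and Pcolce and absent from that of Plod3, with 32.7% of all windows holding it. A letter match describes the sequence only.

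The genes whose intensity followed that of Lox most closely over the 8 arrays were Thbd, Fndc3b, Gpx8, Ptpn11 and Cx3cr1, the last of them also in the macrophage list, with Pearson r of 0.99 for each, a likeness that the difference between the groups shapes and that is given as a description. All 5 were lower after anti-miR-214, with log2 changes of -0.80, -0.66, -0.99, -0.39 and -0.96 in that order. With the mean of each group taken out, the 5 most alike were Cd200, Bcl10, Slamf9, Cmtr2 and Clk2, with r of 0.97 or more over the same 8 arrays, and none of these passed the threshold. The lists of 5 shared no gene.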

How the data were processed

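Total RNA was extracted, cleaned with DNase and labelled as biotin cRNA for Illumina bead arrays, per the labels' protocols, with scanner and software not stated there. The deposited table gives the linear bead intensity, non-normalized per the file headers, and a detection p-value for each of 45281 probes. The deposited series matrix holds processed intensities of unstated background correction and normalization, with column medians of 20.2 to 20.4 and values below 0; it served as an alternative. Intensities were processed with limma 3.58.1 in R 4.3.3 (neqc, offset 16, quantile normalization, log2), which compresses changes of dim probes. Testing required a detection p under 0.05 on 4 or more of the 8 arrays. The lmFit and eBayes model held group alone, with Benjamini-Hochberg adjustment over all tested probes. A gene was counted by its brightest tested probe. "At least" folds use the lowest detected signal per array as floor. Platform annotation named 34885 probes with 1 gene, 18 with several (left unnamed), and 10378 were not listed; RefSeq updated 0 symbols. Named are all probes of the 10 genes, of each list other than the cell marker lists every gene past the threshold and the 2 of largest p that did not pass, and the 5 genes most like Lox by each measure; other names were chosen after their values were seen. Members and lists were chosen with earlier results of these data known. The model was tested on simulated data of this comparison with 200 changed probes, where 6.47% of the calls were false. It recovered 96% of log2 changes of 2, 73% of those of 1 and 18% of those of the only smaller size simulated. The simulated probes were independent and few of the 18601 were changed, whereas 4761 passed in the data. These rates therefore show that the model works on such data and do not give the rates of this comparison. No pair of arrays was a duplicate (highest raw correlation 0.991). The limma p-values set the group difference against the spread between the 4 animals of each group, moderated over all fitted rows. The exact permutation p-values rest on the 70 arrangements of the arrays.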

Additional observations from a re-analysis of the deposited data

Results flagged for a closer look

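Of 30 groups of 4 arrays examined for the 15 probes, 1 had an array far from the others, where chance flags about 1 in 20 groups. It was the dimmer Serpinh1 probe in control antimiR kidneys, where replicate 1 read 9.08 and the other 3 arrays 8.25 to 8.34, a gap of 0.892 of the whole range. Without that array the log2 change of the probe was 0.04, against -0.16 with all arrays, and it passed the threshold in neither case. On the brighter Serpinh1 probe the same array was also the highest of its group, at 13.22.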

How the results depend on the processing

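Lox kept its direction and its call in all 22 refits, and 1 lower and 0 higher of the 8 genes were called in each. Of all probes, 2566 were lower and 2195 higher, which changed to 4509 and 551 with arrays scaled to a common median, 2297 and 3455 with a common median of the tested probes (added after seeing the data), 1475 and 1081 on slide 1 alone, and 971 and 429 without both anti-miR-214 replicates 3 and 4. The lower share of calls was 53.9%, 89.1% under common-median scaling and 39.9% with that of the tested probes, and the median change of all probes was 0.05, -0.15 and 0.13 in the same order. Leaving out 1 array gave 1729 to 2629 lower and 1214 to 2195 higher. Of the other collagen processing genes, 2 lower and 0 higher became 6 lower under common-median scaling, 1 lower and 1 higher with the slide as a block, 0 lower and 1 higher without both anti-miR-214 replicates 3 and 4, and 1 to 3 lower and 0 to 1 higher without 1 array. The fibrillar collagens had 5 lower, 1 without both anti-miR-214 replicates 3 and 4, and 4 to 5 without 1 array. The cause was not tested.

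Signs turned only for changes that passed no threshold. Under common-median scaling Plod1 was at -0.26, the Plod2 probes at -0.10 and -0.26, and the brighter P4ha1 probe at -0.16. On slide 1 alone Plod1 was at -0.072 and the Plod2 probes at -0.069 and -0.15. Without both anti-miR-214 replicates 3 and 4 Plod1 was at -0.18 and P4ha1 at -0.12. Leaving out 1 array gave -0.047 to 0.31 for Plod1 (lowest without anti-miR-214 replicate 4), -0.096 to 0.30 and -0.22 to 0.11 for the Plod2 probes, and -0.24 to 0.038 for the dimmer Serpinh1 probe. Without control antimiR replicate 4 the Plod2 probes were at -0.10 and -0.22. The second Plod2 probe was at -0.0085 with no background correction, -0.0064 with normexp and offset 50, -0.065 with array weights, -0.08 without anti-miR-214 replicate 2 and -0.0058 without replicate 3. Serpinh1 was at 0.028 with a common median of the tested probes, and its dimmer probe at 0.038 without control antimiR replicate 1. The dimmer P4ha1 probe was at -1.42 in the authors' processed values (limma adjusted p = 0.0703) and could not be tested where detection on all arrays was required.

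Same-numbered arrays deviated together with r of 0.02 to 0.20, so that the numbers were not taken as pairs. With the replicate block 2477 probes were lower and 2121 higher, and Lox was at -1.77 (limma adjusted p = 0.00162).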
